A study of Mus musculus with 5 samples.

Results

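Furin and 7 genes of transforming growth factor beta (TGF-β) signalling were followed across γδ T cells of the mouse ear skin, thymus and peripheral lymph node (pLN). The set is Furin, Tgfb1, Tgfbr1, Tgfbr2, Smad3, Smad7, Skil and Ski, 8 of the 27998 genes in the count matrices. It was chosen by the measured level and share of cells with each transcript in these same libraries, so the levels of the 8 genes are a description and carry no test. The cells were Vγ4+ cells of ear skin and Vγ6+ cells of ear skin, pLN and thymus from C57BL/6 mice of 8 weeks, each in 1 droplet library. A pooled library held Vγ6+ cells of mice of 8 to 10 weeks: TcrdCreER animals gave the pLN cells, ACT-FLPe animals the thymus cells and TcrdH2BeGFP animals the ear skin cells. The pool carries no label that ties a cell to its tissue, and no treatment was stated for any group. Collagenase digestion of the skin took 75 minutes at 37 °C, thymus cells passed a lysis of CD4 and CD8 cells for 30 minutes at 37 °C, and no warm incubation was stated for pLN. Tissue and preparation therefore cannot be told apart.

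Furin is a membrane-bound protease of the secretory pathway that cuts many precursor proteins behind basic residues. One of them is the TGF-β precursor, which leaves the cell as a latent complex until integrins or proteases release the ligand. Released TGF-β binds the type II receptor Tgfbr2, which recruits and phosphorylates the type I receptor Tgfbr1, and this kinase activates Smad2 and Smad3. Smad7 blocks the receptor complex, while Ski and Skil (SnoN) repress Smad target genes in the nucleus, and Smad7 and Skil are themselves induced by the pathway. In T cells TGF-β supports residence in epithelia and the IL-17 programme, and Furin is also induced by T cell receptor and cytokine signals.

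The start-site windows of Furin and of Tgfb1, the convertase and its ligand, are shown because both transcripts were several times more abundant in the skin libraries than in pLN. Of the 8 genes, 6 had an entry in the RefSeq promoter table (GRCm38.p6), which covers 250 bases before and 50 bases after a start site. Furin has 2 entries on the minus strand of chromosome 7, the outer one at chr7:80405387-80405686 and the inner one at chr7:80402763-80403062. The Tgfb1 entry lies on the plus strand at chr7:25686752-25687051. Capitals mark matches, on either strand, to the Smad box (CAGAC), the TATA box (TATAAA) and the NF-κB motif (GGGA and CC with any 4 bases between).
Furin outer start: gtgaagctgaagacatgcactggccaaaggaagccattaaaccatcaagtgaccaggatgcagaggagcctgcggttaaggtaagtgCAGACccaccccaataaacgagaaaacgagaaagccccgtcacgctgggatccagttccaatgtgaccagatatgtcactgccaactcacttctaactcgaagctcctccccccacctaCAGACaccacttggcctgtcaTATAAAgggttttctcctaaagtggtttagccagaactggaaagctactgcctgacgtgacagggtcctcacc
Furin inner start: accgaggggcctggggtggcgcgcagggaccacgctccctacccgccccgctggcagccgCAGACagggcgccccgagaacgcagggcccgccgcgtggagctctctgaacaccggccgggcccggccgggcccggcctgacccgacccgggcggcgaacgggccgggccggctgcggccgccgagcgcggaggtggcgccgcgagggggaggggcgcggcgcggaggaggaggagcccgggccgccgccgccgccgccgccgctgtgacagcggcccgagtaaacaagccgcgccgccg
Tgfb1 start: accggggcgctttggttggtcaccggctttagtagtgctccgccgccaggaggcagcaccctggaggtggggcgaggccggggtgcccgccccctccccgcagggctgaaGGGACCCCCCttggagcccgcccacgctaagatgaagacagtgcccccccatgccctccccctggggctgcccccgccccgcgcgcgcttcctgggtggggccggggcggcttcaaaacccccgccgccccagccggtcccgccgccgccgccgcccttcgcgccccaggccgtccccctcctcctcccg
Searched on both strands, the outer Furin window held the Smad-box letters CAGAC at positions -163 and -44 and a TATAAA at -23 relative to the start site. Its GC content was 51.3%, against 82.3% in the inner window, which held CAGAC at -190 and the GC-box letters GGGCGG or their complement at -208 and -101. The Tgfb1 window, at 77.0% GC, held 6 GC boxes and 1 NF-κB match at -140, and no CAGAC. Of all 32851 entries in the table, 49.6% held CAGAC, 35.7% a GC box, 20.7% the NF-κB motif and 13.6% TATAAA. None of these 3 windows held the AP-1 letters TGANTCA (7.81% of entries), TGACGTCA (1.79%), the Smad palindrome GTCTAGAC (0.213%) or TTCNNNGAA (8.30%). These matches are descriptions of letters, and reads from transcript ends do not tell which Furin start was used. In the GENCODE M21 annotation of GRCm38, Furin (ENSMUSG00000030530) spans chr7:80388585-80405436 and overlaps Gm44851 on the opposite strand.

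The kept cells numbered 687 to 2517 a library and held 793463 to 6607432 summed UMIs (unique molecular identifiers, 1 for each captured transcript). Median UMIs per cell were lowest in skin Vγ6 at 1059 and highest in thymus Vγ6 at 2156. Of 17 γδ T17 marker genes, 17 were detected in every library, at 5194 to 9619 CPM (UMIs of a gene in each 1e6 UMIs of the library) summed. Libraries shared 0 to 9 cell barcodes a pair. Keratinocyte markers summed to 1435 CPM in skin Vγ4, where 9 of 10 were detected, and to 271 CPM in skin Vγ6, where 6 of 10 were and Krt5, Krt15, Krt1 and Dsg1a were at 0; in pLN, thymus and pool they were at 66.0 to 135 CPM. Dendritic and macrophage markers summed to 950 CPM in skin Vγ6 against 1884 CPM in pLN Vγ6, with Itgax, Flt3 and Adgre1 at 0 in the former and Csf1r, Adgre1 and Cd207 in the latter. Fibroblast markers were at 0 to 1.69 CPM in the 5 libraries. The 8 cycling markers summed to 253 CPM in skin Vγ6, 980 in thymus Vγ6 and 2553 in pLN Vγ6. Thymus exceeded pLN in NK or cytotoxic markers (1074 against 68.9 CPM), αβ T or thymocyte markers (159 against 15.7 CPM) and mast cell markers (136 against 1.19 CPM, with 5 of 7 at 0 in both), and pLN exceeded thymus in B cell markers (112 against 21.6 CPM). Most of the NK or cytotoxic sum of thymus came from Gzma (694 CPM) and Nkg7 (373 CPM). Ncr1, Klrb1c, Klra8 and Prf1 were at 0.454 to 3.78 CPM there. Most of its mast cell sum came from Cpa3 (125 CPM), which led a thymus cluster called T cells. Whether such markers came from other cells or from the sorted cells was not tested. The part of any other cells in the results below was not tested either. There was 1 library per group, so all intervals in parentheses are 95% counting intervals that do not cover differences between animals or preparations.

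Furin separated the skin libraries from pLN and thymus by a larger ratio than any other gene of the set. It stood at 1623 CPM (1567 to 1681) in skin Vγ4 and 1917 CPM (1822 to 2016) in skin Vγ6, 68.2 CPM (60.5 to 76.5) in pLN Vγ6, 41.2 CPM (36.4 to 46.4) in thymus Vγ6 and 364 CPM (343 to 386) in the pool. Both skin libraries were far above the rest, the pool lay between, and thymus was lowest when taken as a whole library. The ratio of skin Vγ6 to pLN Vγ6 was 28.1 (24.8 to 32.0), and that to thymus Vγ6 was 46.6 (40.9 to 53.2). Thymus stood below pLN at a ratio of 0.604 (0.510 to 0.715), which is less than the 2-fold used as a call. Skin Vγ4 was at 0.847 (0.796 to 0.901) of skin Vγ6, also short of a call.

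The skin difference lay in the number of cells with the transcript and in its amount per cell. Furin UMIs were found in 79.9% of skin Vγ4 cells and 76.3% of skin Vγ6 cells, against 15.6% in pLN, 9.14% in thymus and 27.9% in the pool. With each cell thinned to 800 UMIs, and 39, 125, 0, 10 and 323 shallower cells left out in the same order, the shares were 62.95%, 69.0%, 5.56%, 3.91% and 20.6%. The deeper pLN and thymus libraries had the lower shares, thinned or not. Cells with 3 or more Furin UMIs made up 41.4% of skin Vγ4 and 35.7% of skin Vγ6, but 0.823% of pLN and 0.318% of thymus. The highest count in a single cell was 20 in skin Vγ4 and 14 in skin Vγ6, 7 in pLN and 4 in thymus. No cluster was named as another cell type, so these shares have no background from cells that should lack Furin. Among unnamed clusters, 8 skin Vγ4 cells with 9 keratinocyte markers raised were at 265 Furin CPM (151 to 430), and 23 pool cells with 7 dendritic or macrophage markers raised were at 200.4 CPM. A pLN cluster of 65 cells with 4 such markers was at 35.4 CPM, and 321 cycling thymus cells with 3 thymocyte markers were at 17.6 CPM.

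**Figure D1:**
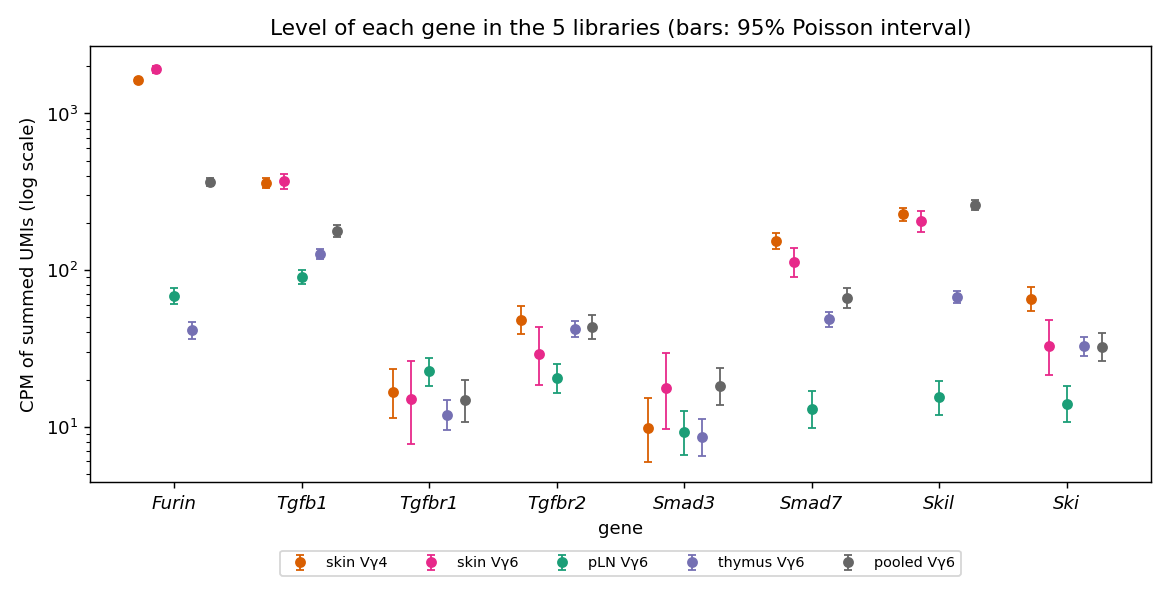
Level of each of the 8 genes (x axis) in CPM of summed UMIs on a log scale (y axis), 1 point per library with its 95% Poisson interval. Furin, Tgfb1, Smad7 and Skil are higher in both skin libraries than in pLN and thymus, whereas Tgfbr1 and Smad3 stay between 8.63 and 22.6 CPM everywhere.

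Tgfb1, which encodes the ligand that Furin processes, followed the same order of tissues over a smaller range, except that thymus stood above pLN. Its level was 359 CPM in skin Vγ4 and 368 CPM (327 to 413) in skin Vγ6, 90.01 CPM (81.2 to 99.5) in pLN, 127 CPM (119 to 136) in thymus and 178 CPM in the pool. The 2 skin libraries did not differ beyond counting error, at a ratio of 0.975 (0.850 to 1.12). Skin Vγ6 was 4.09-fold (3.50 to 4.78) above pLN and 2.90-fold (2.53 to 3.31) above thymus. Thymus exceeded pLN by 1.41-fold (1.25 to 1.60), under the call. At 800 UMIs a cell, Tgfb1 was found in 23.4% of skin Vγ4, 23.3% of skin Vγ6, 6.79% of pLN and 10.2% of thymus cells.

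Neither receptor was called in skin Vγ6 against pLN or thymus, from 23 Tgfbr2 and 12 Tgfbr1 UMIs in skin Vγ6. Tgfbr2, the ligand-binding type II receptor, was at 48.1 CPM (38.8 to 58.9) in skin Vγ4 and 29.0 (18.4 to 43.5) in skin Vγ6, 20.4 (16.3 to 25.2) in pLN, 42.1 (37.3 to 47.3) in thymus and 43.6 (36.4 to 51.8) in the pool. The ratio of skin Vγ6 to pLN was 1.42 (0.855 to 2.27), an interval that spans no change. The Tgfbr2 interval of skin Vγ4 lay above that of pLN and overlapped that of thymus, with no ratio taken between these libraries. Thymus was called above pLN at 2.06-fold (1.61 to 2.66). This call was lost under 6 alternatives, the log2 ratio falling from 1.04 to 0.42 when cells with cycling markers were left out. Tgfbr1, the type I receptor kinase, stood at 16.6 CPM in skin Vγ4 and 15.1 in skin Vγ6, 22.6 in pLN, 12.0 in thymus and 14.9 in the pool. Its counts were small, 12 UMIs in skin Vγ6, and the ratio of skin Vγ6 to pLN was 0.670 (0.335 to 1.23). Thymus was at 0.530 (0.388 to 0.722) of pLN, just short of a call, and became a lower call under 5 alternatives, at log2 ratios of -1.04 to -1.13.

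Smad3, the receptor-activated transducer, gave few UMIs in every library. It was at 9.83 CPM in skin Vγ4 and 17.6 in skin Vγ6, 9.26 in pLN, 8.63 in thymus and 18.2 in the pool. No library reached the 20 CPM needed to count as measured. The ratio of skin Vγ6 to pLN was 1.90 (0.955 to 3.59), from 14 and 39 UMIs, an interval that spans no change. Against thymus it was 2.05 (1.05 to 3.72), from 14 and 57 UMIs, an interval that just excludes no change at a level too low to be called.

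The feedback inhibitor Smad7 and the repressor Skil showed a stepped order, with pLN lowest, thymus between and skin highest. Smad7 was at 154 CPM (137 to 173) in skin Vγ4 and 112 CPM (90.1 to 138) in skin Vγ6, 13.1 CPM (9.84 to 17.003) in pLN, 48.7 CPM (43.6 to 54.4) in thymus and 66.5 CPM in the pool. Skil was at 228 CPM (207 to 250) in skin Vγ4 and 205 CPM (175 to 239) in skin Vγ6, 15.4 CPM (11.9 to 19.7) in pLN, 67.5 CPM (61.4 to 74.1) in thymus and 261 CPM (243 to 280) in the pool. For both genes the intervals of pLN, thymus and the skin libraries did not overlap.

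Against pLN, Smad7 was 8.59-fold (6.07 to 12.2) higher in skin Vγ6 and 3.73-fold (2.80 to 5.06) higher in thymus. Skil was 13.3-fold (9.92 to 18.0) and 4.37-fold (3.36 to 5.76) higher. These 2 comparisons share the pLN library, so a low value there raises both. Skin Vγ6 compared with thymus, which leaves pLN out, gave 2.302-fold (1.80 to 2.92) for Smad7 and 3.04-fold (2.53 to 3.65) for Skil. The Smad7 call there was lost under 3 alternatives, with a log2 ratio of 0.65 under the stricter cell filter against 1.20. Skin Vγ4 was at 1.37 (1.08 to 1.76) of skin Vγ6 for Smad7 and 1.11 (0.924 to 1.33) for Skil, neither of them a call.

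Ski, the close relative of Skil, was lowest in pLN and as high in thymus as in skin Vγ6. It stood at 65.7 CPM (54.8 to 78.2) in skin Vγ4 and 32.8 (21.4 to 48.0) in skin Vγ6, 14.01 (10.7 to 18.1) in pLN, 32.7 (28.5 to 37.4) in thymus and 32.4 in the pool. Skin Vγ6 exceeded pLN by 2.34-fold (1.41 to 3.77) and thymus exceeded pLN by 2.33-fold (1.74 to 3.17). Skin Vγ6 and thymus had a ratio of 1.002 (0.640 to 1.51). The skin Vγ6 call over pLN, resting on 26 UMIs, was lost under the stricter cell filter and in cells with few immediate early and heat shock UMIs, at log2 ratios of 0.86 and 0.96, the latter from 2 UMIs in skin. Ski was also called higher in skin Vγ4 than in skin Vγ6, at 2.00-fold (1.31 to 3.19), a call lost under 7 alternatives with log2 ratios from 0.94 to 1.32.

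Counted together, 5 of the 7 measured genes of the set were called higher in skin Vγ6 than in pLN, where 16.0% of 5770 genes tested were called higher, and 0 were called lower, against 30.4%. The median log2 ratio of all 8 genes, with the unmeasured Smad3 included, was 1.59, and that of all tested genes -0.38. In thymus against pLN, 4 of 7 were called higher, beside 11.8% of 5703 genes, and 0 lower, beside 11.3%. Those 4 were Tgfbr2, Smad7, Skil and Ski. In skin Vγ6 against thymus, Furin, Tgfb1, Smad7 and Skil, 4 of 6, were called higher beside 13.7% of 5656 genes, and 0 lower beside 24.5%. Between skin Vγ4 and skin Vγ6, Ski alone of 6 was called higher beside 4.26% of 4973 genes, and 0 lower beside 3.18%. The genes were selected on these levels, so nothing is read from the excess over the background.

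The pooled library gave a view of the 3 tissues inside 1 run and from other animals. Each of its 2006 cells was given to the skin, pLN or thymus Vγ6 profile that fitted its other genes best, without the 8 genes and the pathway lists, which gave 628, 649 and 729 cells. Furin was at 1095 CPM in cells that fitted skin, 150 CPM in those that fitted pLN and 100 CPM in those that fitted thymus. The skin-fitting cells exceeded the pLN-fitting cells by 7.31-fold (6.14 to 8.74), less than the 28.1-fold between separate libraries. The order of the 3 groups was the same as between libraries.

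Skil was higher in each of the 3 pool groups than in its separate library. It was at 519 CPM in skin-fitting, 130 CPM in pLN-fitting and 216 CPM in thymus-fitting pool cells. The ratio of skin-fitting to pLN-fitting cells was 3.98 (3.26 to 4.88), against 13.3 between libraries, and that of thymus-fitting to pLN-fitting cells 1.66 (1.34 to 2.05), against 4.37. Tgfb1 was at 341, 122 and 128 CPM, with 2.80-fold (2.25 to 3.50) between skin-fitting and pLN-fitting cells. Smad7 was at 138, 26.3 and 57.5 CPM, with 5.24-fold (3.40 to 8.33) between the same groups. Ski was 4.29-fold (2.35 to 8.28) higher in skin-fitting cells, from 46 and 15 UMIs. Tgfbr2 was level in the pool at 47.7, 44.8 and 40.0 CPM, and the thymus excess of the separate libraries was not seen there, at 0.894 (0.584 to 1.37). These groups follow expression profiles and not tissue labels, so they are no check of the tissue.

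**Figure D2:**
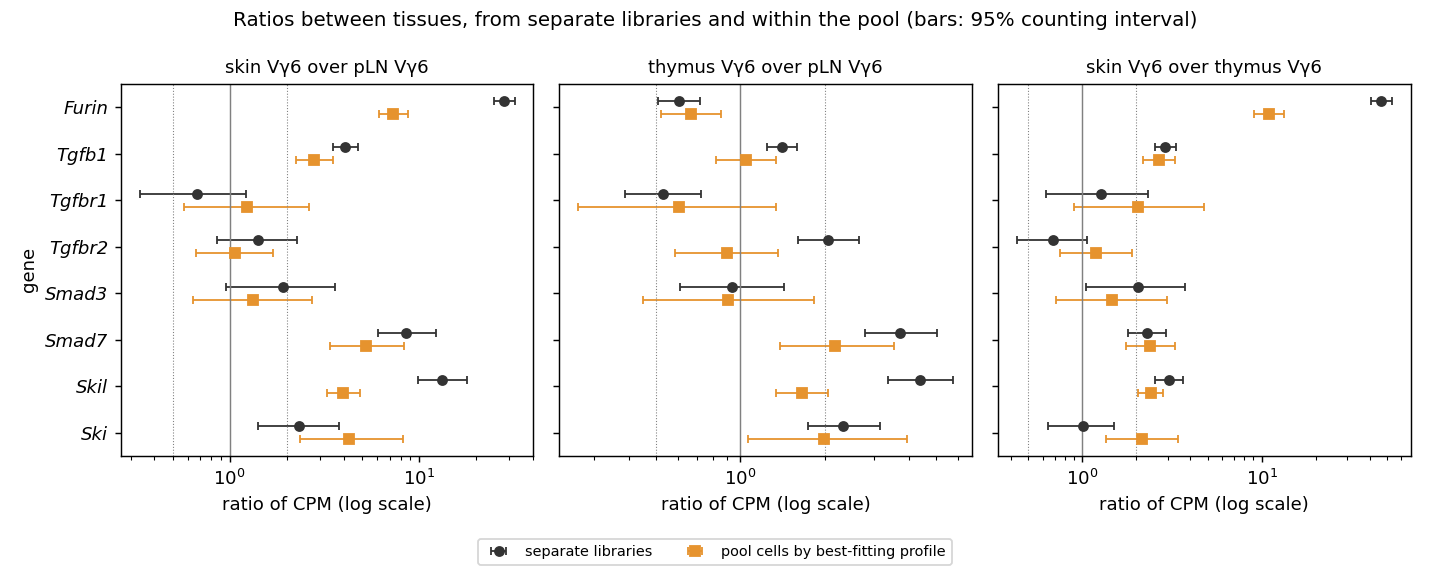
Ratio of CPM (x axis, log scale) for each gene (y axis) in 3 tissue comparisons, from separate libraries (circles) and from pool cells grouped by their best-fitting profile (squares), with 95% counting intervals and dotted lines at the 2-fold call. Furin is 28.1-fold higher in skin Vγ6 than in pLN between libraries and 7.31-fold within the pool, and the receptor intervals mostly span 1.

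A set of 11 immediate early and heat shock genes, which respond quickly to handling as well as to receptor signals, differed between the same libraries. The list was drawn up after the data had been seen, and it shares Nr4a1 and Junb with the T cell response genes given below. The 11 genes summed to 7048 CPM in skin Vγ4 and 7339 in skin Vγ6, 642 in pLN, 2582 in thymus and 6839 in the pool. In the pool they were at 11052 CPM in skin-fitting, 2972 in pLN-fitting and 7573 in thymus-fitting cells. The order of pLN, thymus and skin, from low to high, was the same for this sum as for Smad7 and Skil, between libraries and within the pool. Within the pool the order of the sum is no separate observation. The profile fit could use the genes of this set outside the pathway lists, so the grouping itself favours that order.

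Among cells with at most 2 such UMIs of 800, Furin was at 1503 CPM (1224 to 1826) in 84 skin Vγ6 cells, against 73.8 CPM in 1389 pLN cells and 41.6 CPM in 1711 thymus cells. The ratio to pLN was 20.4 (15.1 to 27.6) and that to thymus 36.1 (25.8 to 50.9). In the same cells skin Vγ6 over pLN gave 4.46 (2.80 to 6.89) for Tgfb1, 9.65 (3.22 to 26.6) for Smad7 from 7 and 12 UMIs, and 9.19 (4.54 to 17.9) for Skil. In cells with at most 2, thymus over pLN gave 4.33 (2.32 to 8.81) for Smad7 and 3.01 (1.95 to 4.79) for Skil. Skil in thymus was at 73.1 CPM (59.4 to 88.9) in cells with at most 2 and 116 CPM (87.7 to 150) in cells with 3 to 6 such UMIs, intervals that overlap slightly. Furin in thymus was at 41.6 CPM (31.5 to 53.95) and 85.4 CPM (61.5 to 115) in the same groups, intervals that do not overlap. In thymus cells with 7 or more it was at 62.2 CPM (28.4 to 118). Smad7 in thymus was at 46.8, 56.9 and 20.7 CPM in cells with at most 2, 3 to 6 and 7 or more, the last from 3 UMIs. In skin Vγ6, Skil was at 223, 179 and 206 CPM in cells with at most 2, 3 to 6 and 7 or more. Furin in skin Vγ6 was at 2059 CPM (1873 to 2259) in cells with 3 to 6 and 2087 CPM (1873 to 2320) in cells with 7 or more. In the pool, Furin was at 163 CPM (128 to 204) in cells with at most 2 such UMIs and 633 CPM (565 to 706) in cells with 7 or more, and Skil at 114 CPM (85.5 to 150) and 396 CPM (343 to 454), groups that hold cells of different tissues.

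**Figure D3:**
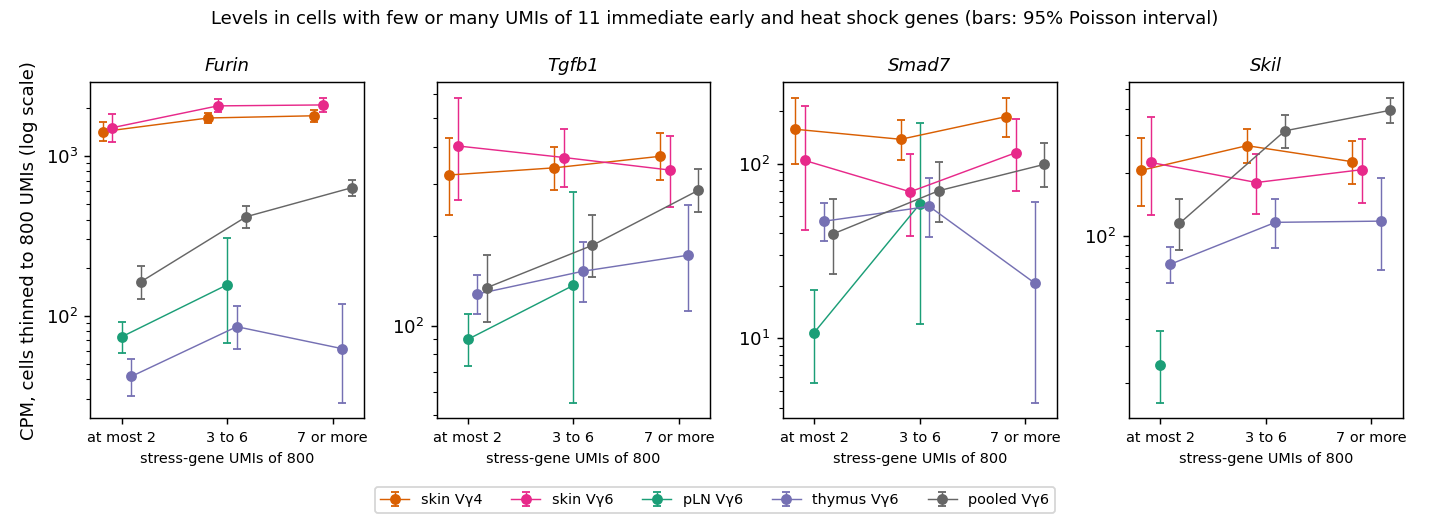
CPM of Furin, Tgfb1, Smad7 and Skil (y axis, log scale, own axis per panel) in cells thinned to 800 UMIs, by the number of UMIs from 11 immediate early and heat shock genes (x axis), per library with 95% Poisson intervals; groups under 50 cells or with 0 UMIs are not drawn. Furin in both skin libraries is at 1421 CPM or more in all 3 bins, and in pLN and thymus at 156 CPM or less.

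Within libraries, clusters made without the 8 genes showed where Furin was uneven. In thymus it was concentrated in cluster 3, led by Il22, Il17a and Il23r. There it was at 117 CPM (99.9 to 137), against 24.3, 18.4 and 17.6 CPM in clusters 0, 1 and 2. These 641 cells, 25.5% of the library, held 58.8% of its Furin UMIs, and 10.45% of them had a Furin UMI at 800 UMIs a cell. The other shares were 2.00%, 1.69% and 0.312%. Cluster 3 was still far under both skin libraries, but above the whole pLN library at 68.2 CPM (60.5 to 76.5). Its interval overlapped that of the largest pLN cluster, at 90.8 CPM (76.9 to 106). The γδ T17 marker Cd163l1 was at 1070 CPM in thymus cluster 3 and at 91.4, 65.1 and 69.2 CPM in clusters 0, 1 and 2. Thymus thus stood below pLN as a whole library, and not in each cluster.

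Other genes of the set were spread differently over the thymus clusters. Skil was also highest in cluster 3, at 98.3 CPM (82.4 to 116) against 65.6, 73.6 and 43.4 CPM. Smad7 was higher in cluster 0, led by Cpa3 and 5830411N06Rik, at 63.9 CPM (54.9 to 73.9), than in cluster 3 at 32.3 CPM (23.5 to 43.3). Tgfb1 was highest in cluster 1, led by Il4 and Ccl5, at 187 CPM, against 115, 103 and 150 CPM in clusters 0, 2 and 3.

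In skin, Furin was high in nearly all clusters. It was at 1737, 1784 and 1425 CPM in the 3 largest skin Vγ4 clusters and at 2077, 1896 and 1406 CPM in the 3 largest of skin Vγ6. The exceptions were the 8 skin Vγ4 cells with keratinocyte markers and a skin Vγ4 cluster of 41 cells led by Gzma and Cpa3, at 277 CPM (175 to 415). Between the 2 largest clusters of each skin library, Smad7 was lower in the one led by Il17f. It was at 75.5 CPM (49.3 to 111) in the skin Vγ6 cluster led by Il17f and Il17a and at 152 CPM (114 to 198) in the next. In skin Vγ4 it was at 132 CPM (111 to 155) in the Il17f-led cluster and at 217 CPM (179 to 262) in the one led by Rgcc and Hspa1a, while smaller clusters held 2 to 34 Smad7 UMIs. The split by Il17a and Il17f UMIs did not separate Smad7, at ratios of 1.20 (0.836 to 1.74) in skin Vγ4 and 0.513 (0.192 to 1.18) in skin Vγ6, and in the pool the Il17f-led cluster was at 142 CPM, against 48.6 and 19.5 CPM in the other 2 largest. In pLN, Furin stayed between 35.4 and 90.8 CPM in the 5 clusters above 50 cells. In the pool, cluster 1, led by Il17f and Cxcl2, was at 1193 CPM (1107 to 1284) and held 66.2% of the Furin UMIs, while cluster 4, led by Klre1, was at 17.2 CPM (6.93 to 35.5). Clusters are groups of cells of 1 library and are not replicates.

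**Figure D4:**
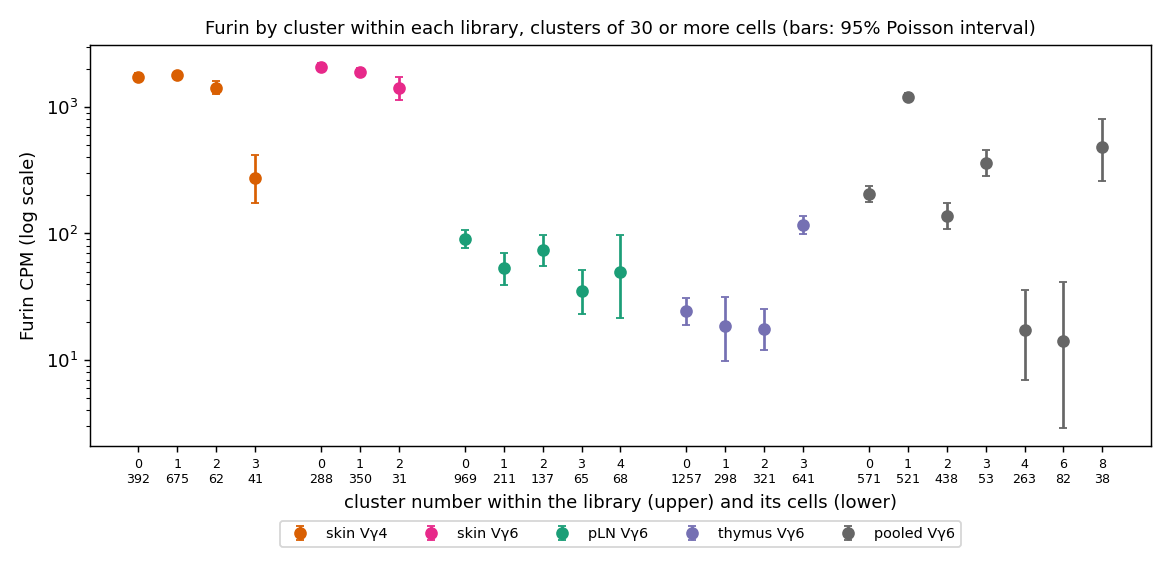
Furin CPM (y axis, log scale) in each cluster of 30 or more cells (x axis, cluster number above its number of cells), with 95% Poisson intervals, by library. Thymus cluster 3 stands at 117 CPM above the other thymus clusters, and skin Vγ4 cluster 3 at 277 CPM below the other skin clusters.

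Cells with an Il17a or Il17f UMI held somewhat more Furin than cells without. At 800 UMIs a cell, 67.1% of 729 Il17-positive skin Vγ4 cells had Furin against 55.6% of 410 negative cells, a ratio of summed counts of 1.32 (1.19 to 1.48). In skin Vγ6 the shares were 78.3% of 161 and 65.3% of 401 cells, a ratio of 1.25 (1.08 to 1.44). In the pool, which mixes tissues, the Furin ratio was 1.73 (1.40 to 2.13). Skil and Tgfb1 were also higher in positive pool cells, at 2.25 (1.76 to 2.84) and 1.66 (1.22 to 2.23). Il17f was at 781 CPM in skin-fitting, 17.5 in pLN-fitting and 36.7 in thymus-fitting pool cells, and Il17a at 524, 139 and 198 CPM. The pool split therefore also divides cells of different profiles, and the part of tissue in its ratios was not tested. For the other genes of the set the intervals spanned 1 in these 3 libraries, as they did for Skil and Tgfb1 in both skin libraries.

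Some of the other 7 genes were found more often in Furin-positive than in Furin-negative cells. In skin Vγ4, Skil was found in 20.1% (17.2 to 23.2) of positive and 13.0% (9.97 to 16.6) of negative cells. In skin Vγ6, Tgfb1 was found in 26.5% (22.2 to 31.2) of positive and 16.1% (10.97 to 22.4) of negative cells, intervals that overlap slightly. In pLN, Tgfb1 was found in 14.8% (7.90 to 24.4) of 81 positive and 6.32% (5.09 to 7.74) of 1377 negative cells. In the pool, which mixes tissues, Skil was in 28.5% of positive and 15.8% of negative cells, Tgfb1 in 20.7% and 12.9%, and Smad7 in 9.22% and 4.19%. The intervals of all other pairs in the 5 libraries overlapped.

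The authors' deposited table of mean expression gives 8 Vγ6 clusters, 2 named for pLN, 1 for skin and 5 for thymus, in units per 10000. In that table Furin was at 20.4 in Skin, 0.820 in pLN_1, 0.582 in pLN_2, and 0.205, 1.37, 0.0694, 0.478 and 0.0175 in Thy_1 to Thy_5. Skin was 14.9 times the next cluster, Thy_2. In the authors' deposited table of marker genes, Furin had a natural log fold change of 2.59 in Skin and was found in 79.6% of its cells against 9.9% of the others, with p-values over cells that do not speak for animals.

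Another 4 genes of the set were also highest in Skin in the authors' deposited table: Tgfb1 at 3.80, Skil at 2.07, Smad7 at 0.936 and Smad3 at 0.206. For Tgfb1 the next was Thy_3 at 2.35, for Skil Thy_2 at 1.06, for Smad7 Thy_1 at 0.717 and for Smad3 Thy_5 at 0.174. In that table the 2 pLN columns were lower than every thymus column for Skil, at 0.227 and 0.201 against 0.383 to 1.06. This did not hold for Smad7, which was lowest in Thy_5 at 0.0923, below pLN_1 at 0.204 and pLN_2 at 0.101. The other thymus columns were at 0.299 to 0.717 for Smad7. Tgfbr2 was highest in Thy_1 at 0.508, Tgfbr1 in pLN_2 at 0.286 and Ski in Thy_3 at 0.400. The authors' deposited table of markers lists Tgfb1 at 0.802 and Skil at 0.653 as natural log fold changes of Skin. It has no Skin entry for Smad7, which it lists for Thy_1 at 0.228, in 13.7% of cells against 5.8% of the others. The columns come from cells whose map to the matrices was not analysed here, and they may be the same cells as in the libraries.

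**Figure D5:**
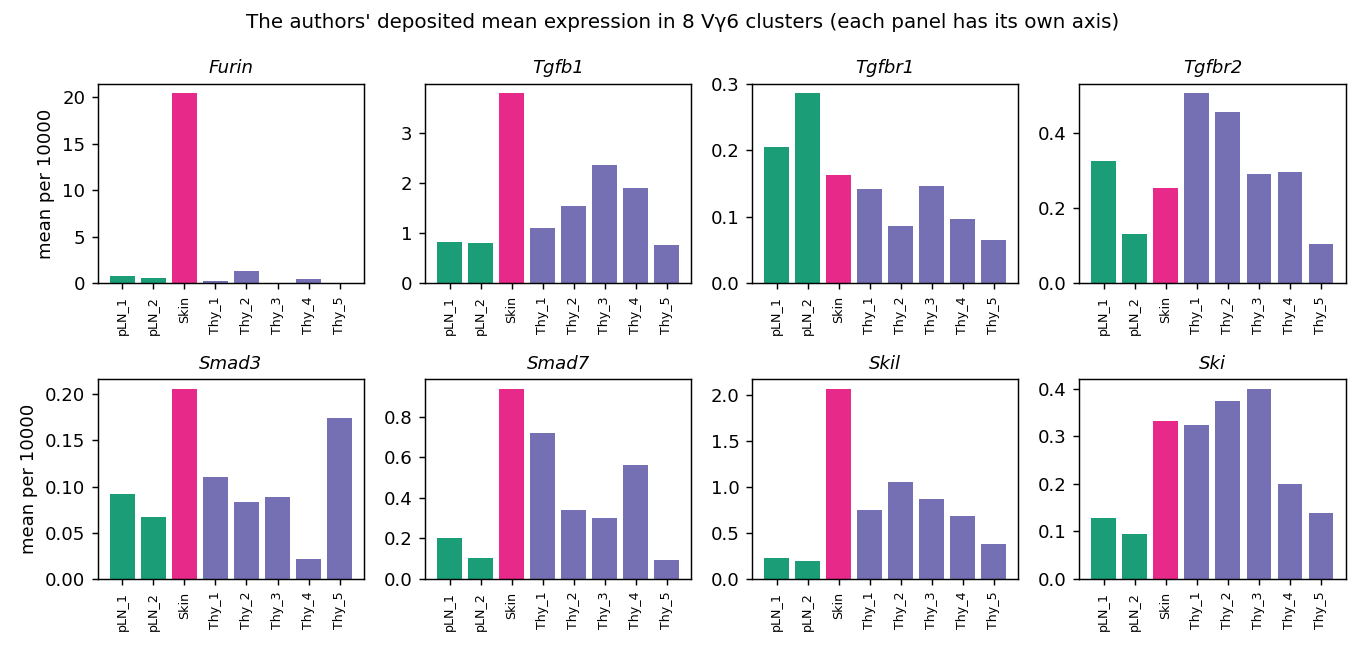
Mean expression per 10000 (y axis, each panel with its own scale) of the 8 genes in the 8 Vγ6 clusters (x axis) of the authors' deposited table, with no error given; green bars are pLN, pink is Skin and purple is thymus. Furin reaches 20.4 in Skin and at most 1.37 elsewhere, while Tgfbr2 peaks at 0.508 in Thy_1.

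Around the set, 127 other genes in 9 lists cover convertases, latent-complex proteins, activators, receptors, Smad cofactors, repressors, T cell response genes and furin substrates. In skin Vγ6 against pLN, 13 of the 48 measured genes were called higher and 7 lower, beside 16.0% and 30.4% of all genes tested. No other convertase was measured there: Pcsk7 stayed at 8.82 to 12.4 CPM in the 5 libraries, and Pcsk5 and Pcsk6 had 0 UMIs. Pcsk1, named here after its values were seen, was at 21.2 CPM in skin Vγ4, from 41 UMIs, and at 2.52 CPM in skin Vγ6. It was called higher in skin Vγ4 than in skin Vγ6, at 8.41-fold (2.19 to 71.8). Among activators of latent TGF-β, Plaur, the urokinase receptor, reached 216 CPM in skin Vγ6 against 1.19 CPM in pLN, a ratio of 181 (76.3 to 566), and the integrin chain Itgav was 6.81-fold (4.55 to 10.2) higher. Itgb1 was lower, at 0.130 (0.0899 to 0.183).

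The list of repressors gave 3 higher and 1 lower of 7 measured genes in that comparison, and the response genes of T cells 7 higher and 3 lower of 16, read beside the same 16.0% and 30.4%. Tgif1, a Smad corepressor, was 19.7-fold (14.9 to 26.4) higher in skin Vγ6, Tob1 11.8-fold (8.47 to 16.7), and Pmepa1, named here after its values were seen, 8.49-fold (4.28 to 17.4). Fkbp1a, which binds the type I receptor, was at 0.391 (0.336 to 0.452). The response genes include Nr4a1 at 325 (148 to 893), Cdkn1a at 31.2 (22.7 to 43.9) and Junb at 15.8 (14.6 to 17.1), which immediate receptor signals also induce, and Klf2 at 0.0603 (0.0421 to 0.0836), a factor of recirculating T cells. Of 8 measured furin substrates, Itgav and Igf1r were higher, the latter at 2.18 (1.55 to 3.02), and Itga4 and Adam10 were lower, at 0.0501 (0.00126 to 0.285) from 1 UMI in skin and at 0.457 (0.266 to 0.740); the last 2 were named after their values were seen.

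In thymus against pLN, 11 of 48 measured pathway genes were called higher and 2 lower, beside 11.8% and 11.3% of all genes tested. Of the 7 measured repressors among them, 4 were higher and 0 lower. Pmepa1, a TGF-β-induced inhibitor of Smad activation, was at 77.8 CPM in thymus and 3.56 CPM in pLN, a ratio of 21.8 (13.1 to 39.3). Tgif1 was 6.96-fold (5.38 to 9.14), Tob1 5.74-fold (4.31 to 7.77) and Ldlrad4 5.44-fold (4.01 to 7.52) higher. The chemokine receptor Ccr9 was 42.1-fold (26.2 to 72.5) and Id3 18.3-fold (12.8 to 27.1) higher. Itgb1 was lower, at 0.156 (0.138 to 0.175).

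In skin Vγ6 against thymus, 15 of 52 were called higher and 9 lower, beside 13.7% and 24.5% of all genes tested. The repressors split: Tgif1 at 2.84 (2.44 to 3.29) and Tob1 at 2.06 (1.67 to 2.52) were higher in skin, and Ldlrad4 at 0.291 (0.158 to 0.494) and Pmepa1 at 0.389 (0.247 to 0.585) lower. Among furin substrates Itgav, Igf1r and Itgae, the epithelial-binding integrin chain, were higher at 3.99, 3.00 and 2.82, and Itga4, at 1 UMI in skin, was lower at 0.0312 (0.000787 to 0.175). Ccr9 had 0 UMIs in skin Vγ6, where 3 UMIs would be 3.78 CPM, and 170 CPM in thymus. In skin Vγ4 against skin Vγ6, 11 of 55 were called higher and 3 lower, beside 4.26% and 3.18% of all genes tested. Ldlrad4 was 6.54-fold (3.82 to 12.2), Klf2 2.54-fold (1.78 to 3.72) and Itgb3 2.33-fold (1.499 to 3.75) higher in Vγ4, and Gzmb was at 0.294 (0.221 to 0.389).

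Among 3599 genes measured in both sources, those whose levels ran most like Furin were Degs1, Sdc4, Tnf, Zfp36l1 and Rab11fip1. Likeness was the mean of Pearson's r over the 5 libraries and over the authors' 8 columns on log scales, and it was 0.993, 0.987, 0.974, 0.971 and 0.970. Sdc4 ran at 821 and 996 CPM in skin Vγ4 and Vγ6 and at 23.0, 12.9 and 153 CPM in pLN, thymus and pool. Genes most like Skil were Tgif1 (0.986), Csrnp1 (0.975) and Tnfaip3 (0.969), and those most like Smad7 were Kmt2e (0.947), Ninj1 (0.941) and Relb (0.937). For Tgfb1 they were Lmbrd1 (0.969), 2810403A07Rik (0.967) and Ndfip1 (0.959), and for Ski Prdx6 (0.940), Ythdc1 (0.933) and Rrad (0.922). The libraries and columns may share cells, differ in depth and rest largely on skin against the rest, so these values describe likeness of pattern only.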

How the data were processed

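Single Vγ4+ and Vγ6+ γδ T cells were sorted and sequenced per the labels. The authors deposited raw UMI counts per gene and barcode, 2 tables of 8 clusters (10721 genes, means summing to 10000 a column as a normalized score) and 26092 marker results with natural log fold changes, fractions of cells and p-values below 0.01. Per the submitters' processing notes, Cell Ranger 2.0, Seurat 2.3 and build mm10 were used. How the clusters were made is not given in the sources used here. Barcodes with at least 200 genes and at most 10% mitochondrial UMIs were kept, and no doublets were removed. Summed UMIs were given as CPM. Ratios have exact conditional binomial, levels exact Poisson and shares exact Clopper-Pearson 95% intervals. A gene was called at 2-fold, with an interval excluding 1 and a minimum of 20 CPM in the higher library; with 1 library per group there is no test. Clusters came from scanpy 1.11.5 (2000 variable genes, 30 components, 15 neighbours, Leiden resolution 0.5, igraph 0.11.9), without the 8 genes and pathway genes. A cluster was called T cells from at least 3 γδ T17 markers; one with 3 or more markers of another type at 2-fold stayed unnamed, a limit set after the clusters were seen. Pool cells were fitted by multinomial likelihood. TMM factors came from edgeR 4.0.16 in R 4.3.3. Calls were tried on simulated counts with counting error alone, so variation between cells, animals or preparations was not covered. Some named items are not reported here. Named pathway genes were the called genes with at least 50 CPM, up to 4 per list by the interval bound farthest from 1, and the like genes the 5 highest for Furin and 3 for others with 50 CPM. The 8 genes, lists and rules were chosen with earlier results of these data known.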

Additional observations from a re-analysis of the deposited data

How the results depend on the processing

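Of 319 log2 ratios of the 8 genes under other settings, 273 kept their direction and call, 5 gained a call and 18 lost one. The other 23 changed sign with no call under either setting, in 7 ratios of Tgfb1, Tgfbr1, Tgfbr2, Smad3, Skil and Ski. The low-stress setting (cells with at most 2 UMIs of the immediate early and heat shock genes) was chosen after seeing the data. Furin's log2 ratio ranged over 4.35 to 5.09 (skin Vγ6 over pLN), -0.88 to -0.52 (thymus over pLN), 5.17 to 5.78 (skin Vγ6 over thymus) and -0.74 to -0.08 (Vγ4 over Vγ6 skin), with the same call throughout. In thymus over pLN, genes of the set called higher numbered 1 with a 50 CPM minimum and 2 at 3-fold. Called lower there was 1, Tgfbr1, without the top 5% of cells by UMIs, in T cell clusters, without cycling cells, thinned and in low-stress cells, and 2 at 1.5-fold. In skin Vγ6 over thymus, 2 were higher at 3-fold. In Vγ4 over Vγ6 skin, 0 were higher with every barcode, under the stricter filter, without the top 5%, without cycling cells, by the mean over cells, thinned, in low-stress cells and at 3-fold, and 2 at 1.5-fold. Pathway genes called in skin Vγ6 over pLN were 23 higher with no CPM minimum and 11 lower without cycling cells. In thymus over pLN they were 28 higher with no minimum, and lower 4 without the top 5% and by the mean over cells, 8 without cycling cells, thinned and low-stress, and 7 with no minimum. In skin Vγ6 over thymus they were 9 higher in low-stress cells, and 23 higher and 14 lower with no minimum. In Vγ4 over Vγ6 skin they were 7 higher by the mean over cells, 3 in low-stress cells and 3 at 50 CPM, and 5 lower under the stricter filter and 1 at 50 CPM. Thinned to 800 UMIs, shares of Furin-positive cells fell in every library. Scaling moved the median of all genes in skin Vγ6 over pLN from -0.38 to -0.08 (TMM) and -0.07 (median of ratios), and higher calls from 34.4% to 47.1% and 48.1% of all calls. In skin Vγ6 over thymus that share went from 35.8% to 44.4% and 51.2%, and in Vγ4 over Vγ6 skin from 57.3% to 67.5% with TMM. Grouping pool cells by Spearman correlation moved the log2 ratio of Skil in thymus-fitting over pLN-fitting cells to 1.07 from 0.73. The cause of these shifts was not tested. No paired analysis was possible because each group has 1 library. The limits are 1 library per group, preparation that differs with tissue, and few UMIs of Tgfbr1, Tgfbr2, Smad3 and Ski in skin Vγ6.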
